A study of Mus musculus with 18 samples.

Results

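Wild-type (WT) CD4-CD8- conventional dendritic cells of type 2 (cDC2) were set against WT CD8+ conventional dendritic cells of type 1 (cDC1), both from the spleen of C57BL/6 mice. The members are 6 of the 18 libraries of the series, 3 of WT CD4-CD8- cells and 3 of WT CD8+ cells, taken by genotype and sorted population as the labels give them. The other 12 libraries hold ADAM10-deficient (KO) CD4-CD8- cells, KO CD8+ cells, KO CD4+ cells and WT CD4+ cells, 3 of each, and they entered the same model. Spleens were digested with collagenase and DNase, CD11c+ cells were enriched on magnetic beads, and living CD11c+MHCII+ cells were separated by flow cytometry on CD4 and CD8. All 6 populations were therefore chosen on CD11c and MHC class II protein as well as on CD4 and CD8. The age and sex of the mice, the way ADAM10 was removed and whether the 3 libraries of a group came from separate animals are not given in the labels. The p-values therefore cover variation among these libraries, part of which may be technical. In sorted bulk samples, fewer cells of a type and less RNA per cell cannot be told apart.

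Conventional dendritic cells take up antigen and show it to T cells. The cDC1 lineage depends on the transcription factors IRF8 and BATF3 and carries the chemokine receptor XCR1. It takes up dead cells, binds their actin through CLEC9A and excels at showing engulfed antigen on MHC class I to CD8 T cells. The cDC2 lineage depends on factors such as IRF4, KLF4 and ZEB2, carries SIRPα and CD11b, and is known for showing antigen on MHC class II to CD4 T cells. In the mouse spleen, cDC2 are split by CD4, and those that carry CD4 depend on NOTCH2 signalling.

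Polyadenylated RNA was sequenced as single-end reads, and the deposited estimated counts summed to between 12358884 and 14991215 reads in the 6 libraries. Values per library are given as CPM, counts per 1000000 reads after scaling by the trimmed mean of M values (TMM), always in the order of libraries 1, 2 and 3. CPM compares 1 gene between libraries and not different genes with each other, since longer transcripts give more reads. A gene was called when the adjusted p of edgeR's quasi-likelihood F test (two-sided, Benjamini-Hochberg adjusted over 13355 genes) was under 0.05, and every log2 fold change is WT CD4-CD8- over WT CD8+ unless another pair is named. Libraries of 1 group differed from each other by more than sampling noise, with a chi-square per gene of 9.19 to 31.59 over 18 pairs. Each was counted as a sample of its own, although this spread does not show that they came from separate animals.

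The genes of the sort followed the labels. Cd8a (chr6:71373427-71379173, GRCm38) had 6.40, 5.92 and 5.37 CPM in WT CD4-CD8- libraries, against 1036, 1139 and 1006 CPM in WT CD8+ libraries. Cd8b1, the partner chain of CD8α in T cells, had 2.17, 3.29 and 2.20 CPM in WT CD4-CD8- libraries and 26.7, 17.7 and 29.3 CPM in WT CD8+ libraries. Cd4 was low in both populations, with 5.98, 6.29 and 6.93 CPM in WT CD4-CD8- libraries and 4.34, 5.94 and 6.2 CPM in WT CD8+ libraries, and it averaged 443 ± 37.2 CPM in WT CD4+ libraries (SD, n = 3). Itgax, which encodes CD11c, averaged 1245 ± 71.6 CPM in WT CD4-CD8- libraries and 850.1 ± 79.1 CPM in WT CD8+ libraries (SD, n = 3 each). These genes encode proteins used to pick the cells and are given as a check of the labels.

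Of 13355 genes tested, 5732 (42.9%) differed between WT CD4-CD8- cDC2 and WT CD8+ cDC1. In WT CD4-CD8- cells 2927 (21.9%) were higher and 2805 (21.0%) were lower, and among them 1372 were at least 2-fold higher and 764 at least 2-fold lower. These shares, 21.9% higher and 21.0% lower, are the background for the list counts of this pair below. The libraries of the 2 groups did not overlap for 7257 genes (54.3%). The split by direction depended on the scale. On deposited TPM, which are relative to transcript length and library total, limma called 2920 genes higher and 1113 lower in WT CD4-CD8- cells at a pseudocount of 1, with the median of all genes at a log2 fold change of 0.15, against -0.0040 on the counts. After TMM scaling of the same TPM, an alternative added after seeing the data, 2028 were higher and 1838 lower and that median was 0.0065. A small difference that was called on counts and not on TPM is named as such beside its gene.

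The genes highest in WT CD4-CD8- over WT CD8+ cells came from several functional families. Sirpb1c, a receptor of the signal-regulatory protein family, had 89.6, 95.8 and 82.6 CPM in WT CD4-CD8- libraries, against 0.207, 1.22 and 1.44 CPM in WT CD8+ libraries (log2 fold change 6.56, SE 0.36, adjusted p 5.82e-10). Mmp9, a secreted gelatinase, had 48.4, 44.1 and 52.4 CPM in WT CD4-CD8- libraries and 0.895, 0.429 and 0.302 CPM in WT CD8+ libraries (log2 fold change 6.44, SE 0.40, adjusted p 2.24e-09). Il1rn, the antagonist of the interleukin-1 receptor, had 44.9, 60.3 and 36.7 CPM in WT CD4-CD8- libraries and 0.964, 1.00 and 0.453 CPM in WT CD8+ libraries (log2 fold change 5.85, SE 0.29, adjusted p 1.95e-10). All 3 genes were low in every WT CD8+ library and far higher in each WT CD4-CD8- library. The rule by which these leading genes were named required that the groups did not overlap. The other leading genes were Gja5, a connexin (log2 fold change 6.74), the sodium-calcium exchanger Slc8a2 (6.15), the calcium release channel Ryr3 (5.98), the leukotriene B4 receptor Ltb4r1 (5.91), the lectin Clec4a3 (5.53), the adhesion receptor Adgre4 (5.48), the Ly49 family member Klra2 (5.48), and 5 genes of lymphocyte receptors, Trgc1 (6.26), Trgc4 (5.97), Trdc (5.68), Klrc2 (5.51) and Klrc1 (5.48). Few reads stood behind these genes in WT CD8+ cells, from 4 for Gja5 to 163 for Adgre4 over 3 libraries, and some fitted folds moved by over 1.5 times without 1 WT CD8+ library. Without WT CD8+ library 2 the log2 fold change was 7.99 for Gja5, 8.04 for Trgc1 and 6.33 for Klra2, without library 1 it was 6.12 for Klrc1, and without library 3 it was 7.16 for Ryr3.

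The genes lowest in WT CD4-CD8- against WT CD8+ cells were led by Dkk3, a secreted protein of the Dickkopf family. Dkk3 had 0.0604, 0.146 and 0.259 CPM in WT CD4-CD8- libraries, against 36.0, 18.3 and 45.3 CPM in WT CD8+ libraries (log2 fold change -7.68, SE 0.55, adjusted p 4.90e-08). Ptgis, the prostacyclin synthase, had 0.181, 0.0731 and 0.259 CPM in WT CD4-CD8- libraries and 28.2, 17.8 and 29.2 CPM in WT CD8+ libraries (log2 fold change -7.10, SE 0.46, adjusted p 3.54e-09). Both were at the level of single reads in WT CD4-CD8- cells, with 7 reads of Dkk3 and 8 of Ptgis over the 3 libraries. Mab21l3 had 0.362, 0.878 and 0.583 CPM in WT CD4-CD8- libraries and 67.1, 67.1 and 68.2 CPM in WT CD8+ libraries (log2 fold change -6.81, SE 0.22, adjusted p 2.53e-12), with little spread in either group. The sort gene Cd8a, at -7.49, lay between Dkk3 and Ptgis. Below Mab21l3 followed Cd207, which encodes langerin (log2 fold change -5.64), Ttc39a (-5.57), the lectin Clec4b2 (-5.15), the scaffold Homer2 (-5.14), Fndc5 (-5.06), the lipid phosphatase Plpp1 (-4.90), the integrin chain Itgae (-4.86), the prolyl hydroxylase P3h2 (-4.80), Gp2 (-4.51) and Xcr1 (-4.25). Without WT CD4-CD8- library 3 the log2 fold change of Homer2 was -5.91. The pseudogene Impdh2-ps also met the rule with 1.15, 0 and 0 CPM in WT CD4-CD8- libraries and 19.6, 8.73 and 13.4 CPM in WT CD8+ libraries (log2 fold change -5.07, SE 1.83, adjusted p 0.0341). It can share reads with its parent gene, and its call ended in DESeq2 and without WT CD4-CD8- library 2 or 3 or WT CD8+ library 1 or 3 (adjusted p 0.0545 to 0.109). Without WT CD4-CD8- library 1, in which all its reads of that group lay, its log2 fold change was -10.7 (adjusted p 0.042).

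The cDC1 hallmark list held 31 genes, and all 31 were tested. In WT CD4-CD8- cells 30 were lower and 1 was higher, with a median log2 fold change of -2.91. For every member the 3 WT CD4-CD8- libraries lay apart from the 3 WT CD8+ libraries, beside 54.3% of all genes tested. Xcr1, the receptor of the chemokine XCL1 (chr9:123852315-123862029, GRCm38), had 39.1, 38.1 and 40.6 CPM in WT CD4-CD8- libraries, against 636, 913 and 688 CPM in WT CD8+ libraries. That was 19.0-fold lower in WT CD4-CD8- cells (log2 fold change -4.25, SE 0.26, adjusted p 1.95e-09). Clec9a, the receptor for actin of dead cells, had 66.6, 54.8 and 65.0 CPM in WT CD4-CD8- libraries and 424, 461 and 413 CPM in WT CD8+ libraries (log2 fold change -2.80, SE 0.13, adjusted p 1.37e-10). Naaa, a lysosomal amidase, had 262, 243 and 258 CPM in WT CD4-CD8- libraries and 2042, 2421 and 2170.3 CPM in WT CD8+ libraries (log2 fold change -3.12, SE 0.16, adjusted p 3.25e-10). Xcr1, Clec9a and Naaa were thus all detected in each WT CD4-CD8- library, far below every WT CD8+ library.

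Other members of the cDC1 list spanned a wide range of differences. Cd207 had 0.483, 0.293 and 0.906 CPM in WT CD4-CD8- libraries and 25.8, 25.8 and 34.8 CPM in WT CD8+ libraries. Itgae, the CD103 chain of an integrin that binds E-cadherin, had 2.11, 2.71 and 3.88 CPM in WT CD4-CD8- libraries and 68.9, 107 and 77.7 CPM in WT CD8+ libraries. Cadm1, a cell adhesion molecule of cDC1, averaged 60.9 ± 4.53 CPM in WT CD4-CD8- libraries and 447 ± 38.9 CPM in WT CD8+ libraries (SD, n = 3 each, log2 fold change -2.87, adjusted p 3.79e-11). Ly75, the endocytic receptor DEC-205, averaged 30.9 ± 4.97 CPM in WT CD4-CD8- libraries and 191 ± 5.81 CPM in WT CD8+ libraries (SD, n = 3 each, log2 fold change -2.63, adjusted p 4.55e-09). The differences were smallest for Batf3 (log2 fold change -0.66), Rab43 (-1.28), a small GTPase of cross-presentation, and Wdfy4 (-1.55), a BEACH domain protein needed for cross-presentation of cell-associated antigen. The remaining lower members were Plpp1 (-4.90), Pianp (-4.16), Gcsam (-3.77), Gpr141b (-3.74), Rab7b (-3.38), Ppt1 (-3.32), Tlr3 (-3.30), Fgd6 (-3.2), Hepacam2 (-3.10), Cd36 (-3.03), Tlr11 (-2.92), Ifi205 (-2.91), Cxcl9 (-2.79), Irf8 (-2.68), Snx22 (-2.63), Tlr12 (-2.57), Septin3 (-2.35), Btla (-2.30), Ncoa7 (-2.09) and Cd24a (-2.08). The exception was Tbc1d4, a GTPase-activating protein of vesicle traffic, with 633, 645 and 675 CPM in WT CD4-CD8- libraries and 362, 309 and 352 CPM in WT CD8+ libraries (log2 fold change 0.93, SE 0.12, adjusted p 9.87e-06).

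**Figure D1:**
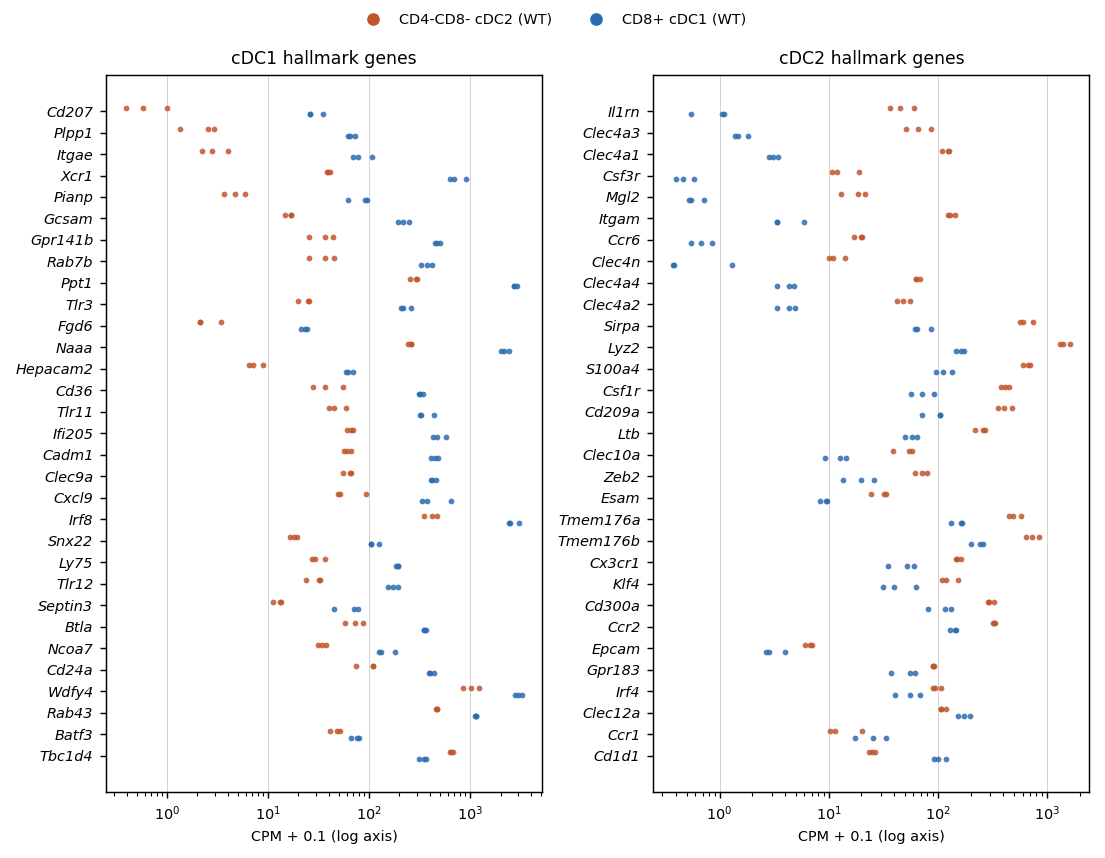
CPM of the cDC1 hallmark genes (left) and the cDC2 hallmark genes (right) in each WT CD4-CD8- library and each WT CD8+ library, with 0.1 added for the log axis and genes ordered by log2 fold change. In the cDC1 list 30 of 31 genes lie lower in WT CD4-CD8- cells, with Tbc1d4 as the exception at the bottom, and in the cDC2 list 28 of 31 lie higher.

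Residual levels of the cDC1 genes in WT CD4-CD8- cells were graded rather than absent. Over the 30 lower members the WT CD4-CD8- mean was between 1.95% and 63.4% of the WT CD8+ mean, with a median of 13.2%. The same share for WT CD4+ cDC2 ran from 0.0703% to 78%, with a median of 4.05%. For 27 of the 31 genes the WT CD4-CD8- mean lay below the WT CD8+ mean and above the WT CD4+ mean. Against WT CD4+ cells directly, 21 of the 31 were higher in WT CD4-CD8- cells and 1 was lower, beside a background of 16.8% of all genes called in that comparison. Gpr141b, for example, averaged 35.4 ± 9.36 CPM in WT CD4-CD8- libraries and 0.514 ± 0.0767 CPM in WT CD4+ libraries (SD, n = 3 each, log2 fold change 6.10, SE 0.40, adjusted p 6.58e-08).

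Sequence of 1 cDC1 gene is shown because its promoter holds the composite letters bound by IRF8 together with BATF factors, the regulators of this lineage. The motif searched on both strands was GAAA followed directly by TGANTCA. It contains TGANTCA and so always overlaps a match to those 7 letters. It was present in 1 of the 25 cDC1 hallmark genes with a RefSeq promoter, Cd207, and in 0.141% of the 27025 genes with a promoter of the same length. The promoter of Cd207, which lies on the minus strand, is given with the match in capitals at chr6:83677808-83678107 (GRCm38.p6).
Cd207: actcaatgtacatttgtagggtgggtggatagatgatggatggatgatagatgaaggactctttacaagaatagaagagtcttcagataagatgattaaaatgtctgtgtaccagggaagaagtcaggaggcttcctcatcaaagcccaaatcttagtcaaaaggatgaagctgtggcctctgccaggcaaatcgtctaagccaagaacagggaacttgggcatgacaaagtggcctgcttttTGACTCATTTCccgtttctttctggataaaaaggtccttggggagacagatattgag
A match of letters is a description, and no binding was measured.

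The cDC2 hallmark list gave the opposite count. Of its 31 members, all tested, 28 were higher and 3 were lower in WT CD4-CD8- cells, with a median log2 fold change of 2.13. Sirpa, which encodes the receptor SIRPα (chr2:129592835-129632228, GRCm38), had 567, 751 and 610.4 CPM in WT CD4-CD8- libraries, against 64.9, 61.5 and 87.0 CPM in WT CD8+ libraries (log2 fold change 3.18, SE 0.19, adjusted p 1.33e-09). Itgam, the CD11b chain of the complement receptor Mac-1, had 125, 144 and 131 CPM in WT CD4-CD8- libraries and 3.24, 3.29 and 5.82 CPM in WT CD8+ libraries (log2 fold change 5.02, SE 0.22, adjusted p 5.55e-11). Csf1r, the receptor of the macrophage colony-stimulating factor, had 377, 447 and 418 CPM in WT CD4-CD8- libraries and 71.8, 56.7 and 92.3 CPM in WT CD8+ libraries (log2 fold change 2.49, SE 0.16, adjusted p 4.10e-09). The 3 WT CD4-CD8- libraries lay above all WT CD8+ libraries for Sirpa, Itgam and Csf1r.

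Lectins of the list that were higher had log2 fold changes of 5.53 for Clec4a3, 5.30 for Clec4a1, 5.11 for Mgl2, 4.32 for Clec4n, 3.99 for Clec4a4, 3.56 for Clec4a2, 2.14 for Cd209a and 2.08 for Clec10a. The Clec4a genes are close paralogs, as are Mgl2 and Clec10a, so their single values depend on how shared reads were divided. Without WT CD8+ library 3 the log2 fold change of Clec4n was 5.34. Other higher members were the granulocyte colony-stimulating factor receptor Csf3r (5.14), the chemokine receptors Ccr6 (4.96), Cx3cr1 (1.63) and Ccr2 (1.22), the lysozyme Lyz2 (3.15), which has a close paralog, the calcium-binding S100a4 (2.53), the lymphotoxin chain Ltb (2.13), the adhesion molecules Esam (1.73) and Epcam (1.09), the paired membrane proteins Tmem176a (1.71) and Tmem176b (1.67), Cd300a (1.47) and the oxysterol receptor Gpr183 (0.83). The call of Esam ended on TMM-scaled TPM (adjusted p 0.0762) and on TPM at a pseudocount of 0.1 (adjusted p 0.122). The 3 lower members were Cd1d1, Clec12a and Ccr1. Cd1d1, which presents lipids to NKT cells, had 23.1, 26.8 and 24.9 CPM in WT CD4-CD8- libraries and 118, 91.8 and 101 CPM in WT CD8+ libraries (log2 fold change -2.06, SE 0.16, adjusted p 3.01e-08). Clec12a (log2 fold change -0.66, SE 0.14, adjusted p 0.00136) and Ccr1 (log2 fold change -0.86, SE 0.31, adjusted p 0.0316) differed less. On TPM neither Clec12a (log2 fold change -0.42, adjusted p 0.0819) nor Ccr1 (log2 fold change -0.56, adjusted p 0.119) was called. The call of Ccr1 also ended without WT CD4-CD8- library 2 or 3 or WT CD8+ library 1 or 3 (adjusted p 0.0594 to 0.161).

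**Figure D2:**
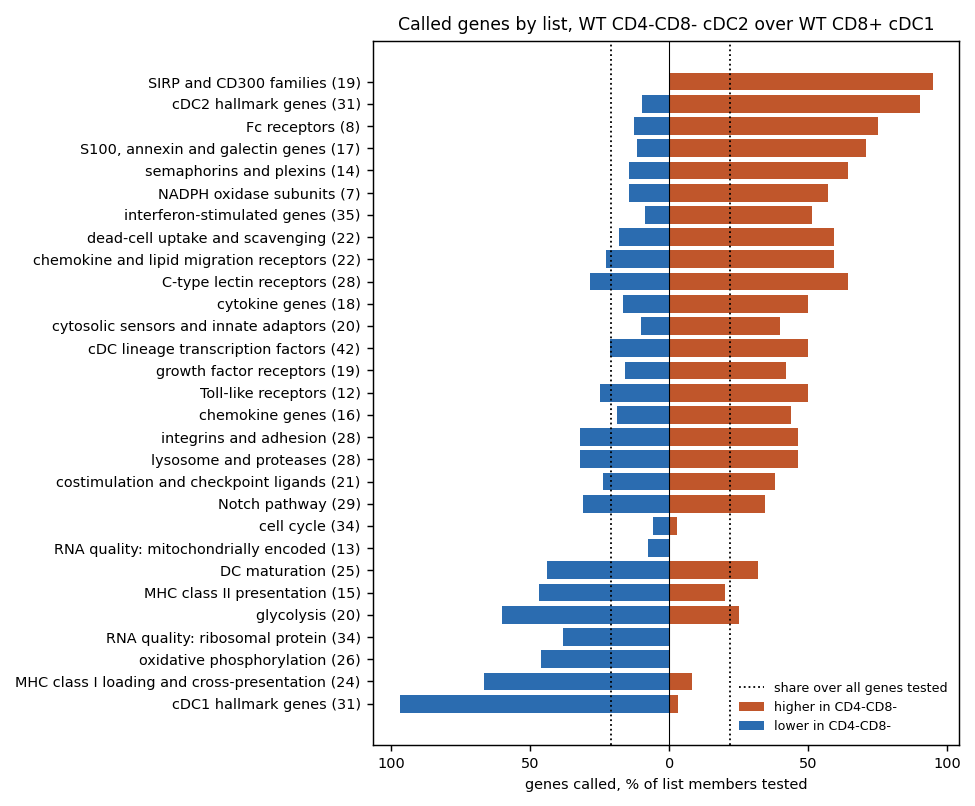
Share of the tested members of each gene list called higher (right) or lower (left) in WT CD4-CD8- over WT CD8+ cells, with the number tested in brackets, and dotted lines at the shares over all genes tested, 21.9% higher and 21.0% lower. SIRP and CD300 genes and cDC2 hallmark genes stand at the top, and cDC1 hallmark and MHC class I genes at the bottom.

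Transcription factors of the dendritic lineages were read gene by gene. Of 42 tested, 21 were higher, 9 were lower and 12 did not pass, with a median log2 fold change of 0.46 on counts, 0.50 on TPM and 0.32 on TMM-scaled TPM. Irf8, the factor on which cDC1 depend (chr8:120736358-120756694, GRCm38), had 472, 353 and 418 CPM in WT CD4-CD8- libraries, against 2452, 3024 and 2479 CPM in WT CD8+ libraries (log2 fold change -2.68, SE 0.15, adjusted p 1.06e-09). Mycl, a MYC family factor of dendritic cells, had 110.0, 112 and 134 CPM in WT CD4-CD8- libraries and 416, 492 and 467 CPM in WT CD8+ libraries (log2 fold change -1.95, SE 0.14, adjusted p 8.65e-09). Id2, an inhibitor of E proteins, had 201, 204 and 194 CPM in WT CD4-CD8- libraries and 457, 519 and 439.8 CPM in WT CD8+ libraries (log2 fold change -1.24, SE 0.14, adjusted p 1.75e-06). For Irf8, Mycl and Id2 all WT CD4-CD8- libraries lay below all WT CD8+ libraries, and each gene was detected in every library of both populations. Batf3, the partner of IRF8 in cDC1 development, had 47.8, 51.3 and 41.4 CPM in WT CD4-CD8- libraries and 78.6, 76.6 and 66.3 CPM in WT CD8+ libraries (log2 fold change -0.66, SE 0.17, adjusted p 0.00460). On TPM that difference was not called (log2 fold change -0.35, adjusted p 0.102).

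The factors linked to cDC2 lay on the other side. Irf4 had 93.9, 91.0 and 108 CPM in WT CD4-CD8- libraries, against 55.9, 40.4 and 69.0 CPM in WT CD8+ libraries (log2 fold change 0.82, SE 0.17, adjusted p 0.000777). Klf4, a zinc finger factor needed by part of the cDC2, had 119, 110.1 and 152 CPM in WT CD4-CD8- libraries and 39.7, 31.3 and 63.4 CPM in WT CD8+ libraries (log2 fold change 1.51, SE 0.25, adjusted p 0.000101). Zeb2, a zinc finger repressor, had 62.1, 72.0 and 80.1 CPM in WT CD4-CD8- libraries and 19.7, 13.5 and 25.9 CPM in WT CD8+ libraries (log2 fold change 1.86, SE 0.23, adjusted p 5.99e-06). Irf4, Klf4 and Zeb2 were all present in WT CD8+ cells, and in none of the 3 did the groups overlap. The call of Zeb2 ended on TPM at a pseudocount of 0.1 (adjusted p 0.0515) and held at 1. Tbx21, which encodes T-bet, had 78.7, 51.6 and 45.9 CPM in WT CD4-CD8- libraries, 3.86, 5.58 and 2.95 CPM in WT CD8+ libraries (log2 fold change 3.83, SE 0.47, adjusted p 5.32e-06) and an average of 49.4 ± 6.43 CPM in WT CD4+ libraries (SD, n = 3). Tbx21 is also expressed by lymphocytes, whose markers were higher in the same libraries. Summed T cell markers, for example, were at 351.4 to 635.3 CPM in WT CD4-CD8- libraries and 42.46 to 94.26 CPM in WT CD8+ libraries, and their part in these values was not tested.

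Several factors shared with monocytes and macrophages were higher in WT CD4-CD8- cells, among them the oxysterol-sensing receptor Nr1h3 (log2 fold change 3.16), Cebpb (3.15), Maf (1.80) and Cebpa (1.13). Higher as well were Prdm1, which encodes BLIMP1 (3.41), the octamer factor Pou2f2 (2.37), Hic1 (2.19), Egr2 (1.27), the NF-κB subunit Relb (1.14), Runx3 (0.85), Ikzf1 (0.76), the retinoic acid receptor Rara (0.67), Nr4a1 (0.95), Egr1 (0.73) and Irf2 (0.25). The calls of the last 3 were borderline, and each ended on leaving out any 1 of several libraries. That of Nr4a1 ended without WT CD4-CD8- library 1 or 3 or WT CD8+ library 2 or 3 (adjusted p 0.0645 to 0.104). That of Egr1 ended without WT CD4-CD8- library 1 or 2 or WT CD8+ library 1 or 2 or 3 (adjusted p 0.0555 to 0.11). That of Irf2 ended without WT CD4-CD8- library 2 or 3 or WT CD8+ library 1 or 2 (adjusted p 0.0531 to 0.0994). The call of Rara ended on TPM (log2 fold change 0.58, adjusted p 0.183), and those of Runx3 (adjusted p 0.0972) and Irf2 (adjusted p 0.107) ended on TMM-scaled TPM. The remaining lower factors were Rxra (-1.13), the Notch effector Rbpj (-0.59), Irf5 (-0.53), Zbtb46, a zinc finger factor restricted to conventional dendritic cells among immune cells of the spleen (-0.50), and Xbp1 (-0.32). On TPM, Rbpj (log2 fold change -0.41, adjusted p 0.0627), Irf5 (log2 fold change -0.17, adjusted p 0.162), Zbtb46 (log2 fold change -0.16, adjusted p 0.224) and Xbp1 (log2 fold change -0.08, adjusted p 0.651) were not called, and the call of Xbp1 ended without WT CD4-CD8- library 1 or 2 or 3 or WT CD8+ library 1 (adjusted p 0.0540 to 0.121).

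The 12 factors that did not pass had log2 fold changes of -0.21 (Tcf4), -0.18 (Irf7), -0.15 (Etv6), -0.13 (Bcl6), -0.01 (Runx1), -0.01 (Notch2), 0.01 (Bcl11a), 0.03 (Zeb1), 0.06 (Batf), 0.23 (Nfil3), 0.42 (Spi1) and 0.50 (Nr4a3). Notch2, the receptor on which CD4+ cDC2 depend, averaged 244 ± 25.9 CPM in WT CD4-CD8- libraries and 245 ± 16.5 CPM in WT CD8+ libraries (SD, n = 3 each). Spi1, which encodes PU.1, had an adjusted p of 0.0537 on counts and was called on TPM (log2 fold change 0.54, adjusted p 0.000594), as was Batf (log2 fold change 0.30, adjusted p 0.0418).

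**Figure D3:**
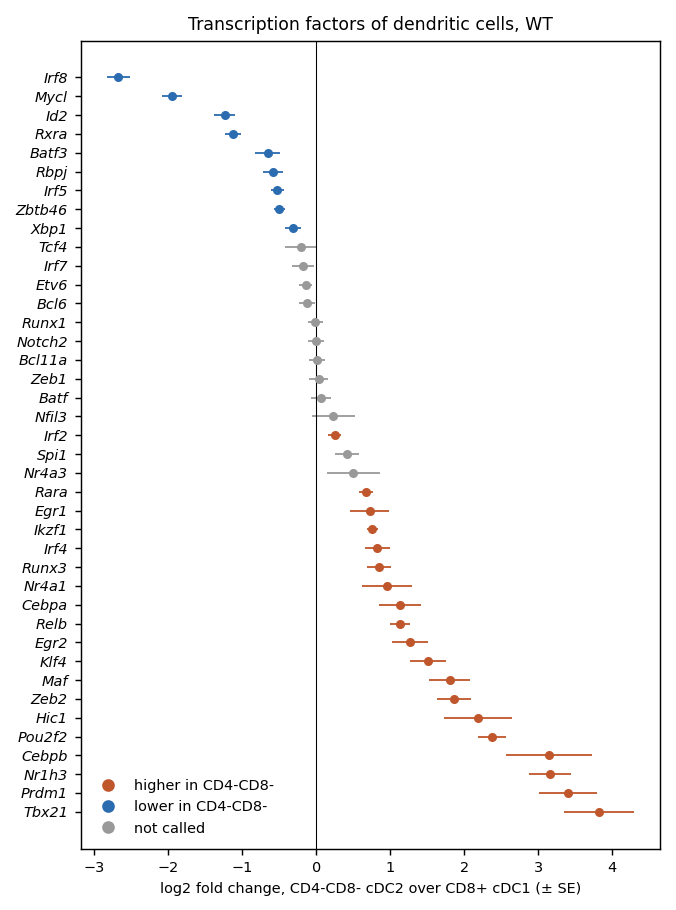
Log2 fold change, WT CD4-CD8- over WT CD8+, of 40 of the 42 transcription factors tested, with bars of 1 SE from the fit of all libraries (3 per group). Irf8, Mycl and Id2 stand at the low end and Tbx21 and Prdm1 at the high end, and 12 factors in grey did not pass the test.

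Toll-like receptors split by family member. Of the 12 tested, 6 were higher, 3 were lower and 3 did not pass (background 21.9% higher, 21.0% lower). The median log2 fold change was 0.51 on counts, 0.50 on TPM and 0.34 on TMM-scaled TPM. Tlr3, the sensor of double-stranded RNA in endosomes, had 25.6, 19.7 and 24.7 CPM in WT CD4-CD8- libraries, against 218, 263 and 209 CPM in WT CD8+ libraries (log2 fold change -3.30, SE 0.19, adjusted p 1.06e-09). Tlr11, which senses profilin of Toxoplasma in mice, had 44.5, 58.9 and 40.1 CPM in WT CD4-CD8- libraries and 321, 434 and 328 CPM in WT CD8+ libraries (log2 fold change -2.92, SE 0.26, adjusted p 1.53e-07). Tlr12, its partner for the same ligand, had 31.7, 23.5 and 32.4 CPM in WT CD4-CD8- libraries and 172, 192 and 155 CPM in WT CD8+ libraries (log2 fold change -2.57, SE 0.13, adjusted p 1.92e-10). Tlr3, Tlr11 and Tlr12, all members of the cDC1 list too, were lower in each WT CD4-CD8- library than in any WT CD8+ library.

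The single-stranded RNA sensors went the other way. Tlr7 had 39.2, 53.7 and 55.0 CPM in WT CD4-CD8- libraries, against 7.09, 8.23 and 8.69 CPM in WT CD8+ libraries (log2 fold change 2.62, SE 0.18, adjusted p 9.19e-09). Tlr8 had 11.4, 19.2 and 14.1 CPM in WT CD4-CD8- libraries and 0.551, 0.215 and 0.227 CPM in WT CD8+ libraries (log2 fold change 5.44, SE 0.29, adjusted p 4.80e-10). Its log2 fold change was 6.02 without WT CD8+ library 1. Both genes lay apart between the groups, and Tlr8 was near the limit of detection in WT CD8+ cells. Among the receptors of bacterial lipoproteins, Tlr1 averaged 77.6 ± 12.6 CPM in WT CD4-CD8- libraries and 11.3 ± 2.66 CPM in WT CD8+ libraries (SD, n = 3 each, log2 fold change 2.78, adjusted p 2.19e-09). Tlr2 (log2 fold change 0.85, adjusted p 0.000899) and Tlr6 (0.99, adjusted p 9.10e-05) were higher to a lesser extent. Tlr5, the flagellin receptor, was also higher (log2 fold change 0.86, SE 0.19, adjusted p 0.00141). Tlr9 averaged 101 ± 18.2 CPM in WT CD4-CD8- libraries and 104 ± 12.9 CPM in WT CD8+ libraries (SD, n = 3 each, log2 fold change -0.04, adjusted p 0.819). Neither Tlr13 (0.04, adjusted p 0.827) nor Tlr4 (0.18, adjusted p 0.6) passed the test.

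**Figure D4:**
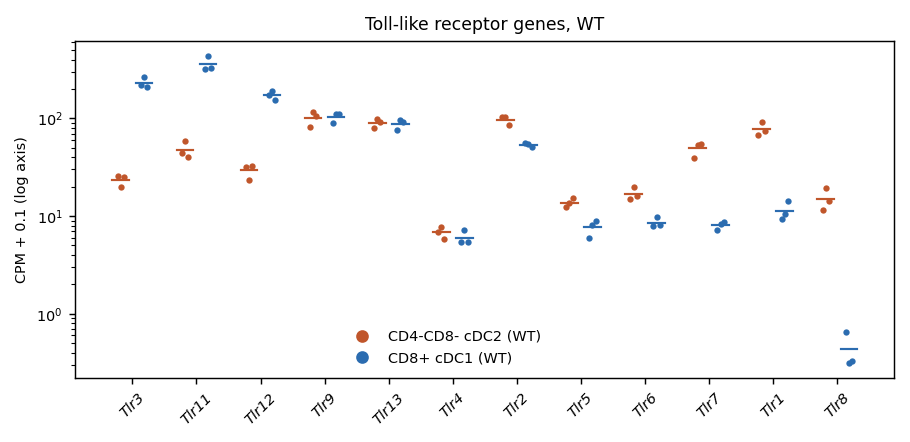
CPM (with 0.1 added, log axis) of the 12 Toll-like receptor genes tested, as points for each library and a bar for the mean of 3, WT CD4-CD8- on the left and WT CD8+ on the right of each gene. Tlr3, Tlr11 and Tlr12 are lower in WT CD4-CD8- cells, Tlr9, Tlr13 and Tlr4 overlap, and the other 6 are higher, with the widest gap for Tlr8.

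Among cytosolic sensors and adaptors, of 20 tested, 8 were higher, 2 were lower and 10 did not pass (background 21.9% higher, 21.0% lower). Their median log2 fold change was 0.30 on counts, 0.56 on TPM and 0.39 on TMM-scaled TPM. Ddx58, which encodes the RNA sensor RIG-I, had 50.6, 54.8 and 50.8 CPM in WT CD4-CD8- libraries, against 4.61, 3.94 and 3.32 CPM in WT CD8+ libraries (log2 fold change 3.71, SE 0.16, adjusted p 5.01e-11). Ifih1, which encodes MDA5, averaged 59.8 ± 9.78 CPM in WT CD4-CD8- libraries and 24.2 ± 3.26 CPM in WT CD8+ libraries (SD, n = 3 each, log2 fold change 1.30, adjusted p 1.11e-06). The cyclic dinucleotide sensor Sting1 (log2 fold change 0.98) and the Toll adaptor Ticam2 (2.02) were higher too. The lower genes were Ticam1, the adaptor of TLR3 (log2 fold change -0.70, SE 0.09, adjusted p 1.37e-05), and Unc93b1, the chaperone of endosomal Toll-like receptors (log2 fold change -0.33, SE 0.07, adjusted p 0.000718), which was not called on TPM (log2 fold change -0.16, adjusted p 0.356).

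Interferon-stimulated genes were higher more often than lower in WT CD4-CD8- cells. Of 35 tested, 18 were higher, 3 were lower and 14 did not pass (background 21.9% higher, 21.0% lower). The median log2 fold change was 1.05. Rtp4, a chaperone induced by type I interferon, had 21.6, 31.4 and 20.3 CPM in WT CD4-CD8- libraries, against 0.689, 1.00 and 0.453 CPM in WT CD8+ libraries (log2 fold change 5.07, SE 0.31, adjusted p 2.32e-09). Ifitm1, a membrane protein that restricts virus entry, had 36.6, 33.3 and 33.8 CPM in WT CD4-CD8- libraries and 1.58, 1.5 and 2.42 CPM in WT CD8+ libraries (log2 fold change 4.24, SE 0.29, adjusted p 5.98e-09). Ifit1, which binds viral RNA, had 10.9, 13.3 and 10.2 CPM in WT CD4-CD8- libraries and 1.38, 1.36 and 1.06 CPM in WT CD8+ libraries (log2 fold change 3.16, SE 0.21, adjusted p 4.04e-09). In none of these 3 genes did the groups overlap. Ifitm3, a close paralog of Ifitm1, was higher as well (log2 fold change 2.58, SE 0.17, adjusted p 5.98e-09). The 3 lower genes were Trim30a (log2 fold change -0.77, SE 0.10, adjusted p 7.68e-06), Mx1 (log2 fold change -0.67, SE 0.16, adjusted p 0.00234) and Oasl1 (log2 fold change -0.98, SE 0.29, adjusted p 0.0108). The call of Oasl1 ended on TPM (log2 fold change -0.70, adjusted p 0.0714) and without WT CD4-CD8- library 3 (adjusted p 0.0662). Against WT CD4+ cells 1 of the 35 was higher and 3 were lower in WT CD4-CD8- cells, beside 16.8% of all genes called.

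Promoters of this list are shown because the genes share a known regulatory sequence while they differ in call. The motif searched on both strands was the core of the interferon-stimulated response element, GAAA, any 2 bases and GAAA again. RefSeq promoters, from 250 bases before to 50 after the start, were at hand for 26 of the 35 genes, and 17 of these (65.4%) held the motif, against 3.99% of the 27025 genes with a promoter. By call, it was in 10 of the 14 higher genes, 6 of the 10 genes that did not pass and 1 of the 2 lower genes with a promoter. Ifit1 (chr19:34640639-34640938, plus strand) and Oas1a (chr5:120907476-120907775, minus strand) were higher in WT CD4-CD8- cells, and Stat2 (chr10:128270248-128270547, plus strand) did not pass, all in GRCm38.p6 with the matches in capitals.
Ifit1: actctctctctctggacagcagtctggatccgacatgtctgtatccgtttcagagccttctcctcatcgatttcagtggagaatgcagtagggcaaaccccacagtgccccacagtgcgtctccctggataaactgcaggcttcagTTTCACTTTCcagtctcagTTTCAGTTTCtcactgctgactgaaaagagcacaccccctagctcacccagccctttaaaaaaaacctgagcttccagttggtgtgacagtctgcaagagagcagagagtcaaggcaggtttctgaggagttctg
Oas1a: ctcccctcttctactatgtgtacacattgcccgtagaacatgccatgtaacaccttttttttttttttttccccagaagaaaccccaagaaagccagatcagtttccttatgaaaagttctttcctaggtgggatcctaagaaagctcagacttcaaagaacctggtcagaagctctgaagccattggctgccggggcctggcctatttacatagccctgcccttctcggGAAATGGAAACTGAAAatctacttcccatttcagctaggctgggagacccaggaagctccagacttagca
Stat2: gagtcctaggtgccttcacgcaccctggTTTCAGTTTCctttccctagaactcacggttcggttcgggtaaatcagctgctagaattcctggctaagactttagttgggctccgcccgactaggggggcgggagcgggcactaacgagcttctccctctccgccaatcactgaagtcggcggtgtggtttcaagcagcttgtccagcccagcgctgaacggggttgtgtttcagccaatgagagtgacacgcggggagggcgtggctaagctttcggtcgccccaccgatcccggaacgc
Oas1a and Stat2 were picked for display after their values were seen. Oas1a, which encodes an oligoadenylate synthetase with close paralogs, averaged 59.1 ± 18.8 CPM in WT CD4-CD8- libraries and 4.49 ± 0.925 CPM in WT CD8+ libraries (SD, n = 3 each, log2 fold change 3.71, adjusted p 4.62e-08). Stat2, a signal transducer of the type I interferon receptor, averaged 65.4 ± 12.9 CPM in WT CD4-CD8- libraries and 62.4 ± 7.29 CPM in WT CD8+ libraries (SD, n = 3 each, log2 fold change 0.07, adjusted p 0.801). The motif was thus found in promoters of genes with and without a difference.

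C-type lectin receptors, which bind sugars and self ligands, differed in both directions. Of 28 tested, 18 were higher, 8 were lower and 2 did not pass (median log2 fold change 2.07 on counts, 1.00 on TPM and 0.88 on TMM-scaled TPM). Within this list the largest rises were those of Clec4e, a sensor of mycobacterial glycolipid (log2 fold change 6.09, with 2.16 ± 0.872 CPM in WT CD4-CD8- libraries and 0.0230 ± 0.0398 CPM in WT CD8+ libraries, SD, n = 3 each), and its partner Clec4d (5.55), both named after their values were seen, ahead of the Clec4a genes and Mgl2 given above. The falls were led by Cd207 and by Clec4b2, with 0.483, 0.146 and 0.583 CPM in WT CD4-CD8- libraries and 16.9, 7.80 and 20.1 CPM in WT CD8+ libraries (log2 fold change -5.15, SE 0.81, adjusted p 6.93e-05). Clec1a averaged 3.96 ± 0.353 CPM in WT CD4-CD8- libraries and 13.1 ± 1.06 CPM in WT CD8+ libraries (SD, n = 3 each, log2 fold change -1.72, adjusted p 4.04e-05). Against WT CD4+ cells 11 of the 28 were higher and 1 was lower in WT CD4-CD8- cells, beside 16.8% of all genes called. The genes of the SIRP and CD300 families moved together, with 18 of 19 higher, none lower and 1 not passing (median log2 fold change 2.44). Sirpb1a had 207, 274 and 220.3 CPM in WT CD4-CD8- libraries and 4.34, 5.73 and 8.46 CPM in WT CD8+ libraries (log2 fold change 5.25, SE 0.23, adjusted p 5.55e-11). Sirpb1b was higher as well (log2 fold change 4.38, SE 0.30, adjusted p 7.43e-09). The Sirpb1 genes are near-identical copies, so single values are uncertain, while each of them was higher.

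Fc receptors followed the same direction, with 6 of 8 higher, 1 lower and 1 not passing (median log2 fold change 2.02 on counts, 1.27 on TPM and 1.11 on TMM-scaled TPM). Fcer1g, the signalling chain shared by Fc receptors and lectins, had 328, 339.9 and 314 CPM in WT CD4-CD8- libraries, against 70.9, 58.2 and 80.0 CPM in WT CD8+ libraries (log2 fold change 2.23, SE 0.11, adjusted p 2.14e-10). Fcgr3, a low-affinity IgG receptor, had 20.2, 26.5 and 16.6 CPM in WT CD4-CD8- libraries and 0.138, 0.573 and 1.36 CPM in WT CD8+ libraries (log2 fold change 4.95, SE 0.35, adjusted p 1.01e-08). Fcgr4 was higher too (log2 fold change 2.97, SE 0.39, adjusted p 1.13e-05). Without WT CD8+ library 3 the log2 fold change of Fcgr3 was 5.87. Fcgr1, the high-affinity IgG receptor of macrophages, had 3.2, 10.5 and 4.47 CPM in WT CD4-CD8- libraries and 0.207, 0.358 and 0.227 CPM in WT CD8+ libraries (log2 fold change 4.47, SE 0.62, adjusted p 1.99e-05). Library 2 was the highest of the WT CD4-CD8- libraries, and without it the log2 fold change of Fcgr1 was 3.84. Fcgrt, the neonatal receptor that recycles IgG, was the lower member (log2 fold change -0.60, SE 0.18, adjusted p 0.0139). It was not called on TPM (log2 fold change -0.47, adjusted p 0.333) nor without WT CD4-CD8- library 2 or 3 (adjusted p 0.0530 to 0.0889).

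Genes of peptide loading on MHC class I and of cross-presentation were mostly lower in WT CD4-CD8- cells. Of 24 tested, 2 were higher, 16 were lower and 6 did not pass (median log2 fold change -0.73). On TPM 12 were lower and 2 higher. Wdfy4 had 860.0, 1027 and 1217 CPM in WT CD4-CD8- libraries, against 2783, 2993 and 3289 CPM in WT CD8+ libraries (log2 fold change -1.55, SE 0.15, adjusted p 4.69e-07). Pdia3, a thiol oxidoreductase of the peptide-loading complex, had 496, 535 and 467 CPM in WT CD4-CD8- libraries and 1172, 1248 and 982 CPM in WT CD8+ libraries (log2 fold change -1.18, SE 0.12, adjusted p 3.74e-07). Rab43 had 467, 469.6 and 462 CPM in WT CD4-CD8- libraries and 1115, 1146 and 1144 CPM in WT CD8+ libraries (log2 fold change -1.28, SE 0.07, adjusted p 8.87e-10), with hardly any spread within a group. Sec61a1, a channel of the endoplasmic reticulum, was lower as well (log2 fold change -0.74, SE 0.08, adjusted p 5.82e-07). Higher were B2m, the light chain of MHC class I (log2 fold change 0.34, SE 0.10, adjusted p 0.0118), and the aminopeptidase Lnpep (log2 fold change 0.58, SE 0.14, adjusted p 0.00294). The call of B2m ended without WT CD4-CD8- library 2 or WT CD8+ library 1 (adjusted p 0.0532 to 0.0607), and that of Lnpep on TPM (log2 fold change 0.52, adjusted p 0.143). Set beside WT CD4+ cells, none of the 24 was higher and 1 was lower in WT CD4-CD8- cells, against 16.8% of all genes called.

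Genes of MHC class II presentation differed little, and their direction depended on the scale. Of 15 tested, 3 were higher, 7 were lower and 5 did not pass on counts (median log2 fold change -0.24 on counts and 0.012 on TPM), while on TPM 4 were higher and 2 were lower. H2-Ab1, the β chain of I-A, had 9781, 10138 and 8916 CPM in WT CD4-CD8- libraries, against 11902, 13063 and 12471 CPM in WT CD8+ libraries (log2 fold change -0.38, SE 0.10, adjusted p 0.00753). That call ended on TPM (log2 fold change -0.13, adjusted p 0.203) and without WT CD4-CD8- library 3 (adjusted p 0.0513). H2-Eb1 was called lower by a log2 fold change of -0.24 (adjusted p 0.0214), and its call ended on TPM (log2 fold change 0.01, adjusted p 0.922) and without WT CD4-CD8- library 1 or 3 or WT CD8+ library 1 or 2 (adjusted p 0.0667 to 0.154). H2-Aa did not pass (log2 fold change -0.07, SE 0.07, adjusted p 0.448). Cd74, the invariant chain, was lower on counts (log2 fold change -0.32, SE 0.07, adjusted p 0.000821) and not called on TPM (log2 fold change -0.12, adjusted p 0.401). Clearer differences were seen in the peptide editors and proteases. H2-DMb2 had 516, 587 and 488 CPM in WT CD4-CD8- libraries and 283, 245 and 275 CPM in WT CD8+ libraries (log2 fold change 0.99, SE 0.11, adjusted p 2.56e-06). Its paralog H2-DMb1 was lower on counts (log2 fold change -0.50, SE 0.09, adjusted p 0.00022) and not called on TPM (log2 fold change -0.22, adjusted p 0.0785). Ctss, cathepsin S, had 1255, 1392 and 1207 CPM in WT CD4-CD8- libraries and 809, 717 and 775 CPM in WT CD8+ libraries (log2 fold change 0.74, SE 0.07, adjusted p 3.02e-07). Lgmn, an asparagine endopeptidase, was also higher (log2 fold change 0.82, SE 0.13, adjusted p 7.29e-05). Marchf1, the ubiquitin ligase that removes MHC class II from the surface (log2 fold change -0.57, SE 0.12, adjusted p 0.000834), and H2-Ob, an inhibitor of peptide editing (log2 fold change -0.35, SE 0.08, adjusted p 0.00190), were lower.

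Lysosomal genes split into 13 higher, 9 lower and 6 that did not pass of 28 tested (median log2 fold change -0.014 on counts and 0.39 on TPM, where 14 were higher and 5 lower), and the lower ones showed the largest differences. Cst3, cystatin C, an inhibitor of cysteine cathepsins, had 1687, 1462 and 1591 CPM in WT CD4-CD8- libraries, against 8291, 10221 and 8509.8 CPM in WT CD8+ libraries (log2 fold change -2.51, SE 0.16, adjusted p 2.90e-09). Ppt1, a palmitoyl thioesterase, had 295, 252 and 291 CPM in WT CD4-CD8- libraries and 2743, 2921 and 2701 CPM in WT CD8+ libraries (log2 fold change -3.32, SE 0.13, adjusted p 1.75e-11). Gusb, β-glucuronidase, had 111, 114 and 113 CPM in WT CD4-CD8- libraries and 784, 940.2 and 772 CPM in WT CD8+ libraries (log2 fold change -2.88, SE 0.09, adjusted p 2.59e-12). The groups lay far apart in all 3 of these genes. In the other direction, the protease Ctsd averaged 156 ± 30.5 CPM in WT CD4-CD8- libraries and 43.7 ± 2.30 CPM in WT CD8+ libraries (SD, n = 3 each, log2 fold change 1.84, adjusted p 1.37e-08). Ctsa (log2 fold change 1.46) and the lysosomal transcription factor Tfeb (1.23) were higher. Of the 7 NADPH oxidase subunits 4 were higher, 1 was lower and 2 did not pass. Cybb, the catalytic subunit, had 693, 746 and 762 CPM in WT CD4-CD8- libraries and 232, 165 and 299 CPM in WT CD8+ libraries (log2 fold change 1.66, SE 0.21, adjusted p 9.09e-06). Rac2, the GTPase of the complex, was higher (log2 fold change 1.14), as was Cyba (0.35), whose call ended without WT CD4-CD8- library 2 or WT CD8+ library 3 (adjusted p 0.0513 to 0.0867). Ncf4 was lower on counts (log2 fold change -0.39, SE 0.09, adjusted p 0.00314) and not called on TPM (log2 fold change -0.19, adjusted p 0.182).

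Receptors for chemokines and migratory lipids were higher in 13, lower in 5 and not passing in 4 of 22 tested (median log2 fold change 0.91). Ltb4r1, the receptor of leukotriene B4, had 29.1, 25.9 and 28.4 CPM in WT CD4-CD8- libraries, against 0.551, 0.644 and 0.151 CPM in WT CD8+ libraries (log2 fold change 5.91, SE 0.25, adjusted p 5.01e-11). Ccr2, the receptor of monocyte chemoattractants, had 332, 329 and 322 CPM in WT CD4-CD8- libraries and 144, 130.4 and 148 CPM in WT CD8+ libraries (log2 fold change 1.22, SE 0.11, adjusted p 1.08e-07). Ccr6, the receptor of CCL20, had 19.5, 20.2 and 16.9 CPM in WT CD4-CD8- libraries and 0.758, 0.573 and 0.453 CPM in WT CD8+ libraries (log2 fold change 4.96, SE 0.28, adjusted p 1.06e-09). Each of these receptors was above every WT CD8+ library in every WT CD4-CD8- library. Besides Xcr1 and Ccr1, the lower receptors were P2ry14, Ccr9 and Cxcr3. P2ry14, a receptor of UDP-sugars, had 17.6, 13.2 and 17.0 CPM in WT CD4-CD8- libraries and 154, 164 and 167 CPM in WT CD8+ libraries (log2 fold change -3.33, SE 0.19, adjusted p 7.80e-10). The gut-homing receptor Ccr9 (log2 fold change -1.97, SE 0.17, adjusted p 1.01e-07) and Cxcr3 (log2 fold change -1.36, SE 0.20, adjusted p 3.21e-05) were lower too.

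Cytokine genes gave 9 higher, 3 lower and 6 not passing of 18 tested (median log2 fold change 0.65, background 21.9% higher and 21.0% lower). Il12b, the p40 chain of interleukin-12, had 4.89, 11.3 and 4.99 CPM in WT CD4-CD8- libraries, against 82.3, 72.4 and 66.4 CPM in WT CD8+ libraries (log2 fold change -3.40, SE 0.27, adjusted p 4.67e-08). Il15 was also lower (log2 fold change -1.93, SE 0.20, adjusted p 5.84e-07), as was Il18 (log2 fold change -1.1, SE 0.14, adjusted p 7.65e-06). Ltb, a subunit of membrane lymphotoxin, had 274, 259 and 222 CPM in WT CD4-CD8- libraries and 49.9, 58.5 and 63.8 CPM in WT CD8+ libraries (log2 fold change 2.13, SE 0.23, adjusted p 1.41e-06). The interleukin-6 family cytokine Osm was also higher (log2 fold change 2.19, SE 0.32, adjusted p 3.79e-05). So was Flt3l, the growth factor of dendritic cells (log2 fold change 1.1, SE 0.14, adjusted p 8.44e-06), whose call ended on TMM-scaled TPM (adjusted p 0.061). Of 16 chemokine genes 7 were higher, 3 were lower and 6 did not pass (median log2 fold change 0.47 on counts and 0.75 on TPM). Ccl9 had 156, 148 and 127 CPM in WT CD4-CD8- libraries and 15.2, 5.87 and 9.75 CPM in WT CD8+ libraries (log2 fold change 3.81, SE 0.26, adjusted p 5.98e-09). Ccl6 (log2 fold change 2.46, SE 0.23, adjusted p 2.98e-07) and Ccl3 (log2 fold change 2.40, SE 0.27, adjusted p 2.00e-06) were higher too. Ccl5, a chemokine that attracts T cells, had 274, 235 and 164 CPM in WT CD4-CD8- libraries and 90.8, 119 and 77.1 CPM in WT CD8+ libraries (log2 fold change 1.23, SE 0.19, adjusted p 7.24e-05). Lower was Cxcl9, a ligand of CXCR3, with 51.7, 93.8 and 49.6 CPM in WT CD4-CD8- libraries and 372, 643 and 333 CPM in WT CD8+ libraries (log2 fold change -2.79, SE 0.63, adjusted p 0.00190). Library 2 of each group was its highest. Ccl22 and Cxcl16 were lower on counts (log2 fold changes -0.85 and -0.53) and not called on TPM (adjusted p 0.14 and 0.0569), and Cxcl16 was also not called without WT CD4-CD8- library 1 or 3 (adjusted p 0.0577 to 0.0785).

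Growth factor and cytokine receptors were higher in 8, lower in 3 and not passing in 8 of 19 tested (background 21.9% higher, 21.0% lower). Il2rg, the common γ chain, had 342, 348 and 306 CPM in WT CD4-CD8- libraries, against 102, 90.2 and 108 CPM in WT CD8+ libraries (log2 fold change 1.73, SE 0.09, adjusted p 3.16e-10). The decoy receptor Il1r2 was higher as well (log2 fold change 2.79, SE 0.31, adjusted p 1.85e-06). Il15ra (log2 fold change -0.96, SE 0.33, adjusted p 0.0285) and Ifngr1 (log2 fold change -0.33, SE 0.10, adjusted p 0.0160) were lower. The call of Il15ra ended on TPM at a pseudocount of 0.1 (adjusted p 0.0512) and without WT CD4-CD8- library 1 or 3 or WT CD8+ library 1 or 2 (adjusted p 0.0737 to 0.102). The call of Ifngr1 ended on TPM (log2 fold change -0.06, adjusted p 0.771) and without WT CD4-CD8- library 2 or 3 (adjusted p 0.0553 to 0.0655). Flt3, the receptor that drives dendritic cell development, had 415, 401 and 422 CPM in WT CD4-CD8- libraries and 644, 675 and 735 CPM in WT CD8+ libraries (log2 fold change -0.73, SE 0.07, adjusted p 2.12e-07). Receptors and bridging proteins of dead-cell binding, uptake and scavenging were higher in 13, lower in 4 and not passing in 5 of 22 tested. Their median log2 fold change was 1.49. Msr1, a scavenger receptor, had 5.26, 9.21 and 6.15 CPM in WT CD4-CD8- libraries and 0, 0.286 and 0.0756 CPM in WT CD8+ libraries (log2 fold change 5.74, SE 0.57, adjusted p 5.04e-07). Without WT CD8+ library 2 its log2 fold change was 7.30. Axl, a receptor tyrosine kinase that binds dying cells through GAS6, had 38.2, 66.8 and 37.7 CPM in WT CD4-CD8- libraries and 5.51, 4.58 and 6.2 CPM in WT CD8+ libraries (log2 fold change 3.13, SE 0.32, adjusted p 5.82e-07). Library 2 was the highest for Axl, and likewise for C1qb, a chain of complement C1q, with 13.7, 29.7 and 14.3 CPM in WT CD4-CD8- libraries and 1.24, 1.79 and 2.12 CPM in WT CD8+ libraries (log2 fold change 3.48, SE 0.49, adjusted p 2.16e-05). Clec9a was lower, as given above. Cd36, which binds oxidised lipids, had 36.2, 27.9 and 55.4 CPM in WT CD4-CD8- libraries and 322, 312 and 343 CPM in WT CD8+ libraries (log2 fold change -3.03, SE 0.27, adjusted p 1.28e-07). Havcr2, which encodes TIM-3, was lower too (log2 fold change -1.31, SE 0.13, adjusted p 3.29e-07). So was Scarb1 on counts (log2 fold change -0.54, SE 0.08, adjusted p 6.14e-05), but not on TPM (log2 fold change -0.38, adjusted p 0.0596).

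Costimulatory and checkpoint ligands were higher in 8, lower in 5 and not passing in 8 of 21 tested (background 21.9% higher, 21.0% lower). Cd86, a ligand of CD28 and CTLA-4, had 58.3, 65.0 and 58.6 CPM in WT CD4-CD8- libraries, against 281, 287 and 278 CPM in WT CD8+ libraries (log2 fold change -2.22, SE 0.13, adjusted p 1.50e-09). Cd274, which encodes PD-L1, had 104, 121 and 130.3 CPM in WT CD4-CD8- libraries and 45.2, 41.2 and 41.8 CPM in WT CD8+ libraries (log2 fold change 1.47, SE 0.20, adjusted p 1.66e-05). Pdcd1lg2, which encodes PD-L2, was higher as well (log2 fold change 2.56, SE 0.30, adjusted p 3.43e-06). Cd86 was thus lower and both PD-1 ligands were higher in WT CD4-CD8- cells, with no overlap between the groups. Btla, an inhibitory receptor, had 71.8, 58.4 and 86.6 CPM in WT CD4-CD8- libraries and 353, 370.0 and 348 CPM in WT CD8+ libraries (log2 fold change -2.30, SE 0.13, adjusted p 1.32e-09). Cd200 was lower on counts (log2 fold change -1.25, SE 0.15, adjusted p 4.30e-06) and not called on TPM (log2 fold change -0.98, adjusted p 0.101). In a list of maturation genes 8 were higher, 11 were lower and 6 did not pass of 25 tested. Apol7c, an apolipoprotein L family member of mature dendritic cells in the mouse, had 98.5, 174 and 98.7 CPM in WT CD4-CD8- libraries and 1032, 1175 and 1049.8 CPM in WT CD8+ libraries (log2 fold change -3.13, SE 0.22, adjusted p 8.36e-09). Arc had 0.846, 1.54 and 0.712 CPM in WT CD4-CD8- libraries and 17.3, 17.0 and 15.8 CPM in WT CD8+ libraries (log2 fold change -4.02, SE 0.41, adjusted p 6.16e-07). Ccl17, a ligand of CCR4, was higher (log2 fold change 1.88, SE 0.51, adjusted p 0.00647), with a log2 fold change of 1.24 without WT CD4-CD8- library 2. Traf1, a signalling adaptor of TNF receptors, was higher as well (log2 fold change 0.56, SE 0.10, adjusted p 0.000185).

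Integrins and adhesion genes gave 13 higher, 9 lower and 6 not passing of 28 tested (background 21.9% higher, 21.0% lower). Itgad, an integrin α chain that pairs with CD18, had 46.3, 23.6 and 51.5 CPM in WT CD4-CD8- libraries, against 4.27, 4.01 and 3.70 CPM in WT CD8+ libraries (log2 fold change 3.34, SE 0.30, adjusted p 1.57e-07). Itgb2, which encodes CD18, had 772, 755 and 812 CPM in WT CD4-CD8- libraries and 453, 442 and 466 CPM in WT CD8+ libraries (log2 fold change 0.78, SE 0.06, adjusted p 4.89e-08). Cadm3 had 106, 121 and 112 CPM in WT CD4-CD8- libraries and 27.2, 21.7 and 29.2 CPM in WT CD8+ libraries (log2 fold change 2.12, SE 0.12, adjusted p 9.57e-10), the opposite direction to its relative Cadm1. Itgb3 was higher (log2 fold change 1.51, SE 0.16, adjusted p 8.51e-07). Cd24a (log2 fold change -2.08, SE 0.18, adjusted p 7.95e-08) and Jaml (log2 fold change -0.85, SE 0.12, adjusted p 2.57e-05) were lower. Semaphorins and their plexin receptors were higher in 9, lower in 2 and not passing in 3 of 14 tested (median log2 fold change 1.04 on counts, 0.63 on TPM and 0.51 on TMM-scaled TPM). Plxnd1 had 109.8, 163 and 149 CPM in WT CD4-CD8- libraries and 24.7, 30.5 and 32.8 CPM in WT CD8+ libraries (log2 fold change 2.26, SE 0.13, adjusted p 1.06e-09). Sema4d (log2 fold change 1.41), Plxnc1 (1.24) and Nrp2 (2.78) were higher. Sema4a, a semaphorin that acts on T cells, had 132, 115 and 114 CPM in WT CD4-CD8- libraries and 215, 253 and 227 CPM in WT CD8+ libraries (log2 fold change -0.94, SE 0.09, adjusted p 1.99e-07). S100, annexin and galectin genes were higher in 12, lower in 2 and not passing in 3 of 17 tested (median log2 fold change 0.77). S100a10 (log2 fold change 2.64, SE 0.20, adjusted p 2.78e-08) and S100a6 (log2 fold change 1.78, SE 0.14, adjusted p 3.00e-08) were among the higher. Anxa6 (log2 fold change -0.55, SE 0.07, adjusted p 1.23e-05) was among the lower.

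The split of the Notch pathway by direction depended on the scale. On counts 10 were higher, 9 lower and 10 not passing of 29 tested (background 21.9% higher, 21.0% lower). The median log2 fold change was 0.07 on counts and 0.20 on TPM. On TPM 9 were higher and 3 lower of 23 tested. Dtx1, a Deltex ubiquitin ligase and Notch target, had 249, 259 and 265 CPM in WT CD4-CD8- libraries, against 5.37, 7.73 and 7.86 CPM in WT CD8+ libraries (log2 fold change 5.21, SE 0.56, adjusted p 1.09e-06). Notch4 had 5.74, 7.75 and 7.19 CPM in WT CD4-CD8- libraries and 74.0, 89.1 and 79.8 CPM in WT CD8+ libraries (log2 fold change -3.56, SE 0.22, adjusted p 2.67e-09). The ligand Jag2 had 2.48, 2.12 and 2.53 CPM in WT CD4-CD8- libraries and 22.7, 25.7 and 18.8 CPM in WT CD8+ libraries (log2 fold change -3.23, SE 0.38, adjusted p 3.37e-06). The relatives Dtx1 and Dtx4 went opposite ways, since Dtx4 was lower in WT CD4-CD8- cells (log2 fold change -1.37, SE 0.20, adjusted p 4.17e-05). The ligand Dll1 was low and higher in WT CD4-CD8- cells (log2 fold change 3.21, SE 0.53, adjusted p 0.000122). Heyl had 1.87, 0.951 and 1.94 CPM in WT CD4-CD8- libraries and a single read in the 3 WT CD8+ libraries together.

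Hexokinases, which open glycolysis, differed in opposite directions. Hk3, a myeloid hexokinase, had 12.9, 14.4 and 11.5 CPM in WT CD4-CD8- libraries, against 187, 213 and 147 CPM in WT CD8+ libraries (log2 fold change -3.82, SE 0.21, adjusted p 7.68e-10). Hk1 averaged 66.4 ± 2.57 CPM in WT CD4-CD8- libraries and 39.3 ± 1.78 CPM in WT CD8+ libraries (SD, n = 3 each, log2 fold change 0.76, adjusted p 3.55e-07). Slc16a3, a lactate exporter, had 35.3, 29.1 and 35.0 CPM in WT CD4-CD8- libraries and 7.02, 7.23 and 6.72 CPM in WT CD8+ libraries (log2 fold change 2.24, SE 0.14, adjusted p 3.15e-09). Of 20 glycolysis genes 5 were higher, 12 were lower and 3 did not pass on counts, and 5 were higher and 7 lower on TPM. Pgk1 (log2 fold change -1.02, SE 0.12, adjusted p 2.11e-06) and Aldoc (log2 fold change -1.06, SE 0.10, adjusted p 3.18e-07) were among the lower. Eno1 (log2 fold change 0.86, SE 0.09, adjusted p 1.24e-06) was among the higher. Of 26 oxidative phosphorylation genes 12 were lower and 14 did not pass on counts, by small differences (median log2 fold change -0.22 on counts and -0.022 on TPM), but on TPM 1 was higher and none was lower. Cell cycle genes were nearly level, with 1 higher, 2 lower and 31 not passing of 34 tested (median log2 fold change -0.033 on counts and 0.17 on TPM), and 3 higher and 2 lower on TPM. The called ones were Kif11 (log2 fold change 0.53), Tyms (-0.52) and Gins2 (-0.39), and each call ended without 1 library. That of Kif11 ended without WT CD4-CD8- library 2 or 3 or WT CD8+ library 1 or 2 (adjusted p 0.102 to 0.138) and on TMM-scaled TPM (adjusted p 0.0794). That of Tyms ended without WT CD4-CD8- library 3 or WT CD8+ library 2 (adjusted p 0.0624 to 0.0857) and on TPM (log2 fold change -0.21, adjusted p 0.434). That of Gins2 ended without WT CD4-CD8- library 3 or WT CD8+ library 2 (adjusted p 0.0602 to 0.0672). Of 13 mitochondrially encoded genes 12 did not pass, and mt-Co3 was lower on counts (log2 fold change -0.38, adjusted p 0.0225) but not on TPM (log2 fold change -0.23, adjusted p 0.101), nor without WT CD4-CD8- library 2 or 3 or WT CD8+ library 2 or 3 (adjusted p 0.0602 to 0.120). Of 34 ribosomal protein genes 13 were lower and 21 did not pass on counts (median log2 fold change -0.17 on counts and 0.065 on TPM), against 6 higher and 2 lower on TPM.

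Markers of NK and T cells were higher in WT CD4-CD8- cells. Of 14 NK cell markers tested 13 were higher, none was lower and 1 did not pass, with summed levels of 704.6 to 1222 CPM in WT CD4-CD8- libraries, against 211 to 254.6 CPM in WT CD8+ libraries and 239.6 to 268.4 CPM in WT CD4+ libraries. Of 16 T cell markers 15 were higher, none was lower and 1 did not pass, with summed levels of 351.4 to 635.3 CPM in WT CD4-CD8- libraries, 42.46 to 94.26 CPM in WT CD8+ libraries and 94.82 to 106.1 CPM in WT CD4+ libraries. In both lists WT CD4-CD8- library 1 was the highest. In WT CD4+ libraries 11 of the 14 NK and 11 of the 16 T cell markers averaged under 1 CPM. The WT CD4+ sums thus rested on few members. In WT CD8+ libraries 3 of the NK and 2 of the T cell markers averaged under 1 CPM. Klrb1c, which encodes NK1.1, had 115, 57.7 and 51.1 CPM in WT CD4-CD8- libraries, against 1.86, 3.08 and 0.227 CPM in WT CD8+ libraries (log2 fold change 5.41, SE 0.49, adjusted p 1.69e-07). Lck, the kinase of T cell receptor signalling, had 141, 78.5 and 81.8 CPM in WT CD4-CD8- libraries and 6.61, 12.5 and 2.49 CPM in WT CD8+ libraries (log2 fold change 3.79, SE 0.53, adjusted p 2.31e-05). Trdc, the constant region of the T cell receptor δ chain (chr14:54142851-54148868, GRCm38), had 123, 54.2 and 116 CPM in WT CD4-CD8- libraries and 1.58, 2.43 and 1.66 CPM in WT CD8+ libraries (log2 fold change 5.68, SE 0.47, adjusted p 6.70e-08). It averaged 0.860 ± 0.529 CPM in WT CD4+ libraries (SD, n = 3). Klrb1c, Lck and Trdc were detected in every library of both populations, and WT CD4-CD8- library 1 held their highest values.

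Related receptors showed the same contrast with both other WT populations. Klrc1, which encodes NKG2A, had 212, 93.4 and 126 CPM in WT CD4-CD8- libraries and 5.44, 2.58 and 1.51 CPM in WT CD8+ libraries, and averaged 0.771 ± 0.503 CPM in WT CD4+ libraries (SD, n = 3). Cd3e and Ncr1, defining markers named after their values were seen, averaged 31.1 ± 13.3 and 51.8 ± 23.7 CPM in WT CD4-CD8- libraries, and 2.50 ± 1.97 and 1.38 ± 0.445 CPM in WT CD8+ libraries (SD, n = 3 each). No call of Klrb1c, Lck, Trdc or Klrc1 ended without 1 library, but without WT CD8+ library 2 the log2 fold change was 6.13 for Klrb1c, 4.47 for Lck and 4.38 for the T cell marker Cd2 (main value 3.76). NK and T cells of the mouse carry little or no MHC class II, one of the proteins on which the cells were sorted. Whether NK or T cells were present in the sorted libraries was not tested. Nor was their part in the values of Tbx21, Ccl5 and the lymphocyte receptor genes.

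**Figure D5:**
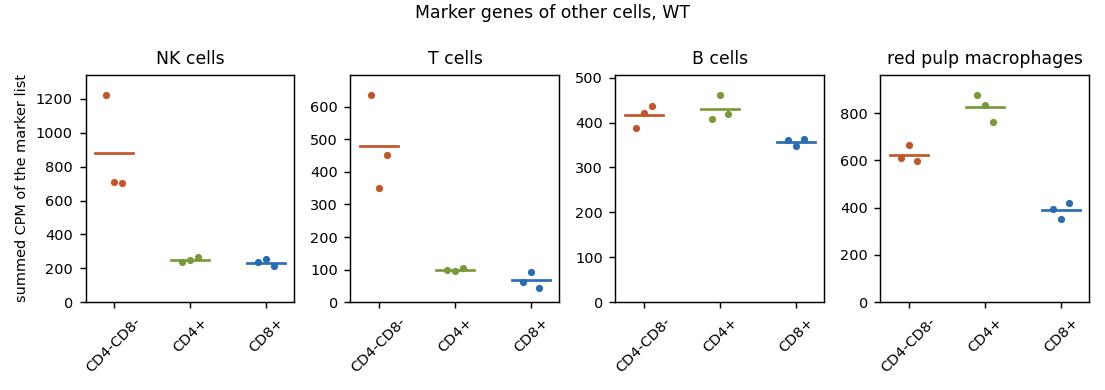
Summed CPM of 4 marker lists in each WT library (points) with the mean of 3 (bars), for CD4-CD8-, CD4+ and CD8+ cells. NK and T cell markers are highest in CD4-CD8- cells, with library 1 above the others, B cell markers lie close together, and red pulp macrophage markers are highest in CD4+ cells.

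Markers of other cells differed as well. B cell markers were higher in 7, lower in 2 and not passing in 4 of 13 tested (background 21.9% higher, 21.0% lower). Their sums were 388.1 to 437.2 CPM in WT CD4-CD8- libraries and 347.8 to 363.9 CPM in WT CD8+ libraries. Blk, a kinase of the B cell receptor, was higher (log2 fold change 4.17, SE 0.32, adjusted p 2.49e-08). Cd22, an inhibitory receptor of B cells, was also higher (log2 fold change 2.63, SE 0.21, adjusted p 4.88e-08). Ms4a1, which encodes CD20, was lower (log2 fold change -1.09, SE 0.25, adjusted p 0.00205). Monocyte markers, several of which cDC2 also express, were higher in 11 and lower in 2 of 14 tested, with sums of 4388 to 4539 CPM in WT CD4-CD8- libraries and 1826 to 2262 CPM in WT CD8+ libraries. Ace, angiotensin-converting enzyme, had 127, 181 and 226 CPM in WT CD4-CD8- libraries and 5.85, 6.15 and 5.44 CPM in WT CD8+ libraries (log2 fold change 4.93, SE 0.39, adjusted p 4.16e-08). Treml4 was lower (log2 fold change -1.78, SE 0.18, adjusted p 7.03e-07). Red pulp macrophage markers were higher in 9 and lower in 2 of 15 tested, with sums of 596 to 664.7 CPM in WT CD4-CD8- libraries and 351.9 to 420.6 CPM in WT CD8+ libraries. Adgre1 alone made up most of the difference between these sums, which were higher still in WT CD4+ libraries (762.8 to 875.8 CPM). Adgre1, which encodes F4/80, had 196, 237 and 199.9 CPM in WT CD4-CD8- libraries and 7.44, 6.51 and 9.14 CPM in WT CD8+ libraries (log2 fold change 4.78, SE 0.19, adjusted p 2.53e-11). Vcam1 (log2 fold change -1.45, SE 0.18, adjusted p 7.72e-06) and the iron transporter Slc11a1 (log2 fold change -1.99, SE 0.12, adjusted p 1.24e-09) were lower. Of 13 markers of plasmacytoid dendritic cells 2 were higher, 4 were lower and 7 did not pass, of 6 plasma cell markers 3 were higher and 1 was lower, and of 5 marginal zone macrophage markers 2 were higher. One of these was the lectin Cd209b, with 7.61, 10.5 and 6.99 CPM in WT CD4-CD8- libraries and 0, 0.0716 and 0.453 CPM in WT CD8+ libraries (log2 fold change 5.57, SE 0.48, adjusted p 8.93e-08). Its log2 fold change was 4.98 without WT CD8+ library 1 and 7.60 without library 3. Erythroid markers gave 1 higher of 7 tested and platelet markers 1 lower of 3, while the 1 neutrophil marker tested did not pass and no mast cell or basophil marker passed the filter on low counts. The part of these cells in the results was not tested.

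Set against WT CD4+ cDC2, WT CD4-CD8- cells differed in 2245 of 13355 genes (16.8%), with 1289 higher and 956 lower on counts, and 1195 higher and 201 lower on TPM. The comparison shares its WT CD4-CD8- libraries with the one above. Ccr2 averaged 328 ± 5.39 CPM in WT CD4-CD8- libraries and 74.2 ± 6.19 CPM in WT CD4+ libraries (SD, n = 3 each, log2 fold change 2.14, SE 0.11, adjusted p 3.36e-09). Vim, which encodes vimentin, averaged 1055 ± 119 CPM in WT CD4-CD8- libraries and 371 ± 10.5 CPM in WT CD4+ libraries (SD, n = 3 each, log2 fold change 1.51, SE 0.09, adjusted p 3.50e-08). Ifi205, an Ifi200 family member, averaged 65.2 ± 4.86 CPM in WT CD4-CD8- libraries and 1.93 ± 0.531 CPM in WT CD4+ libraries (SD, n = 3 each, log2 fold change 5.05, SE 0.24, adjusted p 2.44e-09). Sema4a (log2 fold change 1.74, SE 0.09, adjusted p 3.36e-09) and Klrk1, which encodes NKG2D (log2 fold change 2.27, SE 0.15, adjusted p 6.74e-08), were higher too, so these genes were all higher in WT CD4-CD8- than in WT CD4+ cells.

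Lower than in WT CD4+ cells was Tlr7, with 49.3 ± 8.77 CPM in WT CD4-CD8- libraries and 117 ± 3.93 CPM in WT CD4+ libraries (SD, n = 3 each, log2 fold change -1.25, SE 0.16, adjusted p 4.20e-05). Adgre1 averaged 211 ± 22.6 CPM in WT CD4-CD8- libraries and 467 ± 34.9 CPM in WT CD4+ libraries (SD, n = 3 each, log2 fold change -1.15, SE 0.16, adjusted p 6.36e-05). H2-DMb2 (log2 fold change -0.85, SE 0.11, adjusted p 5.60e-05), H2-Ob (log2 fold change -0.58, SE 0.08, adjusted p 7.14e-05) and Mreg, which encodes melanoregulin (log2 fold change -1.18, SE 0.16, adjusted p 5.19e-05), were lower as well. For Tlr7, Adgre1 and H2-DMb2 the WT CD4-CD8- mean lay between the WT CD4+ mean and the lower WT CD8+ mean.

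The same pair of populations was sorted from KO spleens. Adam10 averaged 44.6 ± 2.89 CPM in KO CD4-CD8- libraries and 106 ± 28.2 CPM in WT CD4-CD8- libraries, and 32.1 ± 3.97 CPM in KO CD8+ libraries and 71.4 ± 23.9 CPM in WT CD8+ libraries (SD, n = 3 each). Which part of the gene was deleted is not given in the labels, so reads from the rest of it may remain. KO CD4-CD8- cells differed from KO CD8+ cells in 6239 of 13355 genes (46.7%), with 3254 higher and 2985 lower on counts, and 2505 higher and 1387 lower on TPM. A test of the difference between genotypes, KO minus WT of the CD4-CD8- minus CD8+ log2 difference, called 1771 genes (13.3%), 1103 with a positive and 668 with a negative value on counts, and 430 with a positive and 549 with a negative value on TPM. This test shares its WT libraries with the comparison of the WT populations. Csf1r averaged 565 ± 58.1 CPM in KO CD4-CD8- libraries and 10.7 ± 2.33 CPM in KO CD8+ libraries, against 414 ± 35.2 CPM in WT CD4-CD8- libraries and 73.6 ± 17.9 CPM in WT CD8+ libraries (SD, n = 3 each), so its gap was wider in KO cells. S100a10 averaged 94.2 ± 12.1 CPM in KO CD4-CD8- libraries and 72.8 ± 8.56 CPM in KO CD8+ libraries, against 79.4 ± 15.0 CPM in WT CD4-CD8- libraries and 12.7 ± 2.05 CPM in WT CD8+ libraries (SD, n = 3 each), so its gap was narrower in KO cells. Of the 34 cell cycle genes, nearly level between the WT populations, 26 had a called negative difference between genotypes and 0 a positive one. Of the 28 lysosomal genes 17 had a called positive difference and 0 a negative one. Over all 13355 genes 668 were negative and 1103 positive, 13.3% together. These list values are from counts and were not tallied on TPM.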

How the data were processed

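RNA of 18 sorted libraries, 3 in each of 6 groups, was measured. The authors deposited estimated counts and TPM per transcript. Per the submitters' processing notes, FastQC 0.11.8 and Salmon 0.14.1 were used with the build GRCm38. Salmon divides reads shared by similar transcripts, and use of strand is not given in the sources used here, so values of paralogs and of overlapping or antisense genes are uncertain. Counts of 117135 transcripts were summed to 24559 gene names and rounded to whole numbers. The 152 transcripts without a name, at most 0.17% of a library's counts, were left out.

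The counts were fitted with edgeR 4.0.16 (R 4.3.3) on all 18 libraries with 1 mean per group, filterByExpr, TMM scaling and the quasi-likelihood F test, which left 13355 genes and 12 residual degrees of freedom. P-values were Benjamini-Hochberg adjusted, and SE is the log2 fold change over the root of F. Alternatives were DESeq2 1.42.0, its size factors in edgeR, no filter, only the groups compared, a replicate block, each library left out, and limma 3.58.1 on TPM summed per gene (mean of at least 1 TPM in any group, pseudocounts 1 and 0.1). TMM-scaled TPM, and the alternatives for the KO populations, were added after seeing the data. Replicate numbers come from the labels. The main fit used no pairs in either genotype, and the replicate block grouped libraries by number within WT and within KO. Same-numbered KO CD4-CD8- and KO CD8+ libraries deviated together from their group means (lowest correlation 0.221). Counts of 13355 genes were simulated from means over all 18 libraries, with 200 genes changed in WT CD4-CD8- cells. The fit recovered 37.3% of genes changed 1.5-fold, 70.1% of those changed 2-fold and 81.8% of those changed 4-fold, with 10 false calls among 136. Far fewer genes were changed there than were called in the data, so these shares do not carry over to the comparison of the WT populations.

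The comparison and the gene lists were chosen with earlier results of these data known. Genes were named by rule: the sort genes, the 15 largest rises and falls among called genes with a mean of at least 10 CPM in the higher group and no overlap, all members of the cDC1, cDC2, transcription factor and Toll-like receptor lists, up to 4 called genes per direction with the smallest adjusted p from each other list, and up to 6 per direction for WT CD4+ cells and for genotype. A few genes that met the rule are not reported here, but they stay in the fits and in the counts of their lists. Promoters are from RefSeq (GRCm38.p6), and gene positions from GENCODE.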

Additional observations from a re-analysis of the deposited data

Results flagged for a closer look

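The results below were set apart because the CD4-CD8- minus CD8+ log2 difference was not the same in KO and WT cells by the interaction term of the edgeR fit (3 libraries per group, adjusted over 13355 genes). A positive value means a larger CD4-CD8- minus CD8+ difference in KO cells. Genes are those with the smallest adjusted p in each direction among the genes of the lists and the leading genes, so their number carries no information. Values of the 4 groups are given as mean ± SD over 3 libraries.

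Cx3cr1, the fractalkine receptor, had the largest positive value (3.90 on the log2 scale, SE 0.29, adjusted p 3.99e-07), with 384 ± 52.8 CPM in KO CD4-CD8- and 8.26 ± 2.81 CPM in KO CD8+ libraries, against 152 ± 8.63 CPM in WT CD4-CD8- and 49.3 ± 13.3 CPM in WT CD8+ libraries. Csf1r differed by 3.22 on the log2 scale, SE 0.23, adjusted p 3.02e-07. Cadm3 differed by 2.99 on the log2 scale, SE 0.18, adjusted p 5.77e-08, with 172 ± 11.1 CPM in KO CD4-CD8- and 4.95 ± 1.08 CPM in KO CD8+ libraries, against 113 ± 7.81 CPM in WT CD4-CD8- and 26.0 ± 3.91 CPM in WT CD8+ libraries. Tmem176a (2.87 on the log2 scale, SE 0.15, adjusted p 1.71e-08) and Tmem176b (2.72 on the log2 scale, SE 0.18, adjusted p 1.14e-07) followed, and for both the KO CD8+ mean was the lowest of the 4 groups. Pfkfb3, a regulator of glycolysis, differed by 1.58 on the log2 scale, SE 0.12, adjusted p 4.25e-07 and changed direction, with 211 ± 8.75 CPM in KO CD4-CD8- and 123 ± 4.43 CPM in KO CD8+ libraries, against 149 ± 20.1 CPM in WT CD4-CD8- and 259 ± 9.15 CPM in WT CD8+ libraries.

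S100a10 had the largest negative value (-2.27 on the log2 scale, SE 0.27, adjusted p 3.63e-05). Ncf4 differed by -1.33 on the log2 scale, SE 0.13, adjusted p 8.35e-06, with 52.0 ± 3.38 CPM in KO CD4-CD8- and 171 ± 1.67 CPM in KO CD8+ libraries, against 95.0 ± 6.51 CPM in WT CD4-CD8- and 124 ± 12.5 CPM in WT CD8+ libraries. S100a11 (-1.30 on the log2 scale, SE 0.18, adjusted p 0.000169) and the galectin Lgals9 (-1.02 on the log2 scale, SE 0.16, adjusted p 0.000365) also had negative values. The integrin chain Itgal, which encodes CD11a, differed by -1.07 on the log2 scale, SE 0.15, adjusted p 0.000203, and Itgb7 by -1.04 on the log2 scale, SE 0.14, adjusted p 0.000155. Itgb7 changed direction, with 516 ± 33.9 CPM in KO CD4-CD8- and 689 ± 16.1 CPM in KO CD8+ libraries, against 435 ± 18.5 CPM in WT CD4-CD8- and 283 ± 8.81 CPM in WT CD8+ libraries.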

How the results depend on the processing

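The count of genes that differed between WT CD4-CD8- and WT CD8+ cells stayed within 1.5 times of 5732 under every alternative run, and lay between 4815 and 5339 without 1 library. Against WT CD4+ cells it was 2245 on counts, 1396 on TPM at a pseudocount of 1, 1336 at 0.1 and 1140 on TMM-scaled TPM, and between 1527 and 2009 without 1 library. Between KO CD4-CD8- and KO CD8+ cells it was 6239 on counts and 3892 and 4014 on TPM at pseudocounts of 1 and 0.1, and between 5459 and 6115 without 1 library, all chosen after seeing the data. For the difference between genotypes it was 1771 on counts, 979 and 805 on TPM at the same pseudocounts, 1066 on TMM-scaled TPM, and between 1350 and 1731 without 1 library. The cause of these moves was not tested, and 12063 genes were tested on TPM. Same-numbered WT CD4-CD8- and WT CD8+ libraries deviated together only weakly (correlations 0.086, 0.085 and 0.174), although each library correlated best with its own number. The correlations were higher for same-numbered KO libraries (0.25, 0.221 and 0.262). The main fit took no numbers as pairs, while the replicate block used the numbers of both WT and KO libraries. With the replicate block the counts were 6274, 2855, 6736 and 2274 in the same order of comparisons, and the block ended no call of a gene named for WT CD4-CD8- against WT CD8+ cells or for genotype. Of 277 called genes named by the rule, DESeq2 ended 1 call and leaving out 1 library ended 24. Of the 271 of them tested on TPM, 37 calls ended at a pseudocount of 1, 40 at 0.1 and 22 on TMM-scaled TPM. On TPM the log2 fold change turned positive for Atp5b (0.16 at both pseudocounts), H2-Eb1 (0.014) and Sdha (0.021), none called there. With 3 libraries per group small differences can be missed, and genes at a few reads in 1 group have folds that depend on single reads.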
